A study of Mus musculus with 165 samples.

Results

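PUER cells that had been driven for 168h by OHT in GCSF were compared with PUER cells driven for 168h by OHT in IL3. The 6 libraries were selected by their titles, 3 GCSF-OHT 168h and 3 IL3-OHT 168h libraries, which are 2 of the 56 groups of libraries in the series. PUER cells, an IL3-dependent line of myeloid progenitors, come from *Spi1*-/- mice without endogenous PU.1. They carry instead a fusion of PU.1 with the hormone-binding part of the estrogen receptor, which 4-hydroxy-tamoxifen (OHT) switches on. Both groups therefore share the loss of the endogenous factor and the fusion transgene. In the GCSF group, IL3 was exchanged for 10 ng/ml GCSF, and 100 nM OHT was added 48 h later to start the neutrophil differentiation. In the IL3 group, cells stayed in 5 ng/ml IL3 and received 200 nM OHT to start the macrophage differentiation. The groups thus differ in cytokine, in OHT dose and in the pre-treatment, whose effects cannot be told apart. Fresh OHT was given to both groups at 40h, 88h and 136h, with part of the medium replaced each time. Replicates were separate wells of a single line, so the p-values measure the spread between wells and libraries. As a background, undifferentiated cells in 5 ng/ml IL3 and cells after 48 h in GCSF without OHT (GCSF 0h) were used, with 3 libraries each, together with the 6 libraries of 160h, which had the same cytokine and OHT doses as at 168h.

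GCSF acts through the receptor encoded by *Csf3r*, which signals mostly by STAT3 and drives the production of neutrophils, short-lived cells that store antimicrobial proteins in granules and kill with reactive oxygen. IL3 acts through *Il3ra* and the common beta chain *Csf2rb*, signals mostly by STAT5 and the ERK pathway, and keeps many myeloid progenitors alive and dividing. PU.1 is needed for both macrophages and neutrophils, and EGR factors with their NAB corepressors are known to oppose *Gfi1* in the choice between these fates.

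The 6 libraries held 16894326 to 26093156 reads on genes and detected 15576 to 16953 genes. Values are normalized counts as the authors deposited them, in which 3 reads, taken as the smallest number told from 0, correspond to 2.57 to 3.91. This floor covers counting error only. The *Spi1* entry, which holds reads of the fusion transgene if they map there, had 11004, 10728 and 11631 normalized counts in GCSF-OHT and 5404, 5685 and 5689 in IL3-OHT, which is 0.99 on the log2 scale (SE 0.05, adjusted p = 2.07e-38, where SE is the standard error of the log2 fold change). The libraries are from bulk RNA, in which fewer cells of a type and less RNA per cell cannot be told apart.

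GCSF-OHT and IL3-OHT cells differed in 4886 of 17414 genes tested (28.1%) at 168h, by limma on log2(normalized count + 1), where a call needed an adjusted p under 0.05 and a log2 fold change beyond 0.58 in size. In the comparison 2096 genes (12.0%) were higher in GCSF-OHT and 2790 (16.0%) were higher in IL3-OHT, and the median log2 fold change of all genes was -0.02. Counts of list members called are to be read against these shares. Larger differences lay more often on the IL3 side. A log2 fold change over 1 was found for 1052 genes higher in GCSF-OHT and 1889 higher in IL3-OHT, over 2 for 258 and 566, and over 4 for 22 and 52. Of the called genes, 95 had at most 3 reads in every one of the 6 libraries, 80 of them on the IL3 side. With more than 3 reads required in each library of the higher group, a restriction added after the values had been seen, 1980 genes were left on the GCSF side and 2474 on the IL3 side. The plot of fold changes by level shows how the differences are spread over the range of expression.

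**Figure D1:**
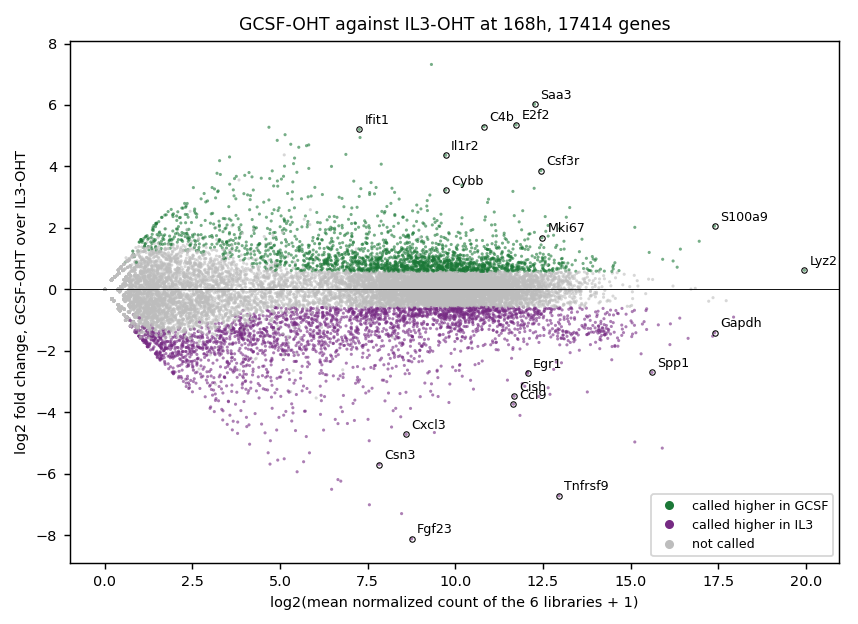
Log2 fold change of GCSF-OHT over IL3-OHT at 168h (y axis) by log2 of the mean normalized count of the 6 libraries plus 1 (x axis), 1 point per gene for 17414 genes. Green points are the 2096 genes called higher in GCSF-OHT, purple points the 2790 called higher in IL3-OHT and grey points those not called, and open circles mark named genes from *Saa3* at 6.02 to *Fgf23* at -8.12.

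The defining markers of neutrophils were present in both groups. Of 10 such markers, 7 were higher in GCSF-OHT and 1, *Ltf*, was higher in IL3-OHT, and their summed level was 644466 to 687984 in GCSF-OHT and 205821 to 241274 in IL3-OHT. Of 12 markers of macrophages and monocytes, 9 passed the filter on low values, 3 were higher in GCSF-OHT (*Csf1r*, *Ccr2* and *F13a1*) and 3 in IL3-OHT (*Cd68*, *Cd14* and *Mrc1*). The summed level of the macrophage and monocyte markers was 19321 to 20109 in GCSF-OHT and 24998 to 27805 in IL3-OHT, and *Cd68*, *Cd14*, *Ly6c2* and *Adgre1* were present in all 6 libraries. Other defining macrophage markers were at or near 0. *C1qb* had 0 reads in all 6 libraries, *C1qa* and *C1qc* had at most 2 reads in any, and *Csf1r*, the receptor for the macrophage growth factor, had 3, 5 and 7 reads in IL3-OHT.

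The genes that led on the GCSF side were an acute-phase protein, an E2F factor, a complement component and an interferon-induced gene. Positions are of GRCm38, from the start to the end of the gene. *Saa3* (chr7:46711998-46715700), which encodes a serum amyloid A protein made in inflammation, had 9067, 8855 and 11093 normalized counts in the GCSF-OHT libraries and 211.4, 126.3 and 118.8 in the IL3-OHT libraries, a log2 fold change of 6.02 (SE 0.15, adjusted p = 1.53e-65). *E2f2* (chr4:136172394-136196057), a transcription factor of the cell cycle, had 6762, 6332 and 6878 in GCSF-OHT and 169.8, 159.2 and 157.4 in IL3-OHT (5.35 on the log2 scale, SE 0.08, adjusted p = 1.32e-86). *C4b* (chr17:34728380-34743882), a complement component, had 2550.0, 2806 and 5242 in GCSF-OHT and 84.3, 94.2 and 75.4 in IL3-OHT (5.29, SE 0.22, adjusted p = 7.41e-45). The third GCSF-OHT library was the highest of its group for *C4b*, and the groups did not overlap, as the rule for the leading genes required. *Ifit1* (chr19:34640871-34650009), an interferon-induced gene, had 188.9, 364 and 339 in GCSF-OHT against 16.6, 3.66 and 4.71 in IL3-OHT (5.20, SE 0.56, adjusted p = 8.85e-15).

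The other 8 leading genes on this side were at or below 16.5 normalized counts in every IL3-OHT library. *Cacna1d*, a calcium channel subunit, had 341, 283 and 278 normalized counts in GCSF-OHT, and *Apoc2*, the cofactor of lipoprotein lipase, had 230.2, 204.7 and 234, with log2 fold changes of 4.94 and 4.39. *Slc28a2*, a nucleoside transporter, had 81.7, 80.8 and 160.00, and *Chil1*, a chitinase-like protein found in neutrophil granules, had 90.5, 82.2 and 135.2 (4.70 and 4.67). *Hunk*, *Erc2* and *Crispld2* had log2 fold changes of 5.03, 4.72 and 4.62. The IL3-OHT libraries together held only 3 reads of the glycosyltransferase gene *B4galnt4*, a ratio of GCSF-OHT over IL3-OHT of 58.9 (95% counting interval 19.8 to 288). Fold changes against so few reads depend on the pseudocount.

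The genes that led on the IL3 side included a phosphate hormone, a TNF receptor family member, members of the BCL2A1 family and a casein. *Fgf23* (chr6:127072902-127081408), which encodes a hormone of phosphate balance, had 2.95, 6.52 and 0 normalized counts in GCSF-OHT and 823, 883 and 876 in IL3-OHT, a log2 fold change of -8.12 (SE 0.45, adjusted p = 2.49e-33). *Tnfrsf9* (chr4:150914562-150946102), which encodes the costimulatory receptor 4-1BB, had 148.6, 170.8 and 129.2 in GCSF-OHT and 15686, 15025 and 16648 in IL3-OHT (-6.72, SE 0.14, adjusted p = 5.97e-75). The GCSF-OHT libraries were close to the floor for *Fgf23* and well above it for *Tnfrsf9*. *Csn3* (chr5:87925579-87932665), the kappa-casein gene, had 5.9, 6.52 and 11.1 in GCSF-OHT and 450.1, 444 and 441 in IL3-OHT (-5.70, SE 0.21, adjusted p = 2.46e-48).

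*Bcl2a1b* and *Bcl2a1d*, near-identical genes for an antiapoptotic protein, had 154.4, 192.1 and 174.4 and 179.3, 233 and 213.02 normalized counts in IL3-OHT and no more than 5.99 in any GCSF-OHT library. Reads of such copies can be split between them, so the value of each is uncertain. *Rpl30-ps9*, a processed pseudogene whose sequence follows the ribosomal protein gene Rpl30, had 0, 0 and 19.7 in GCSF-OHT and 512, 312 and 275 in IL3-OHT (-7.01, SE 2.18, adjusted p = 0.0041) and is uncertain for the same reason. *Plet1*, a surface protein, had 181.7, 193.1 and 218 normalized counts in IL3-OHT against no more than 2.61 in GCSF-OHT (-6.19). *Btn2a2*, a butyrophilin, had 0 reads in each GCSF-OHT library and 52.3, 50.3 and 49 normalized counts in IL3-OHT, at least 16.1-fold higher against a floor of 3 reads per library. For *Vsig8*, *Albfm1* and the imprinting factor gene *Zfp57*, the GCSF-OHT libraries held 2, 3 and 1 reads in all, and the ratios of IL3-OHT over GCSF-OHT were 129.1 (95% counting interval 35.4 to 1071), 97.6 (95% counting interval 33.1 to 476) and 176.4 (95% counting interval 31.3 to 7005).

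**Figure D2:**
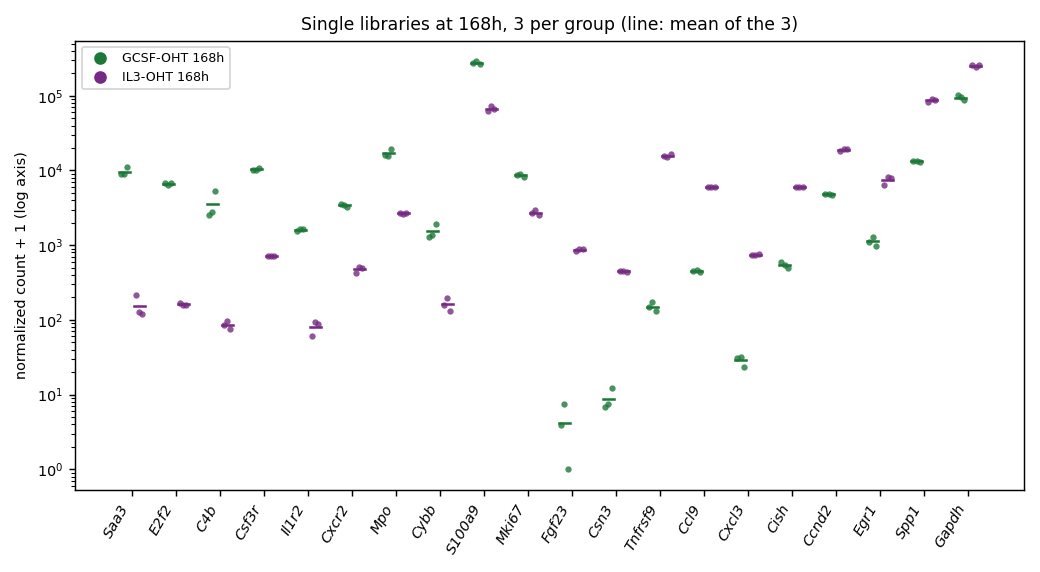
Normalized count plus 1 of 20 genes (log axis) in each of the 3 GCSF-OHT 168h libraries (green points) and the 3 IL3-OHT 168h libraries (purple points), with a line at the mean of each group. The genes were chosen among those called at 168h, some by a rule that required no overlap. The groups are separate for each gene shown, from *Saa3* (8855 to 11093 in GCSF-OHT against 118.8 to 211.4 in IL3-OHT) to *Gapdh* (86622 to 101807 against 243234 to 256907). Of all genes tested, 28.2% had groups that did not overlap with GCSF-OHT higher and 29.5% with IL3-OHT higher.

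Of the receptors of the cytokines, that of GCSF was higher in GCSF-OHT, and no chain of the IL3 receptor was called higher in IL3-OHT. *Csf3r* had 10305, 10245 and 10720.2 normalized counts in GCSF-OHT and 716, 709 and 719 in IL3-OHT, a log2 fold change of 3.86 (SE 0.06, adjusted p = 1.74e-84), and the libraries within each group were close. *Il3ra* had 754, 596 and 689.6 in GCSF-OHT and 882, 715 and 825 in IL3-OHT and was not called (-0.25, SE 0.13, adjusted p = 0.089). *Csf2rb*, the common beta chain, was 0.46 higher on the log2 scale in GCSF-OHT, below the fold threshold, and its IL3-specific copy *Csf2rb2* was called with 0.94 (SE 0.05, adjusted p = 3.66e-34). These are paralogs whose reads can be split. Of 18 genes of the myeloid cytokine receptor list tested, among them the antagonist gene *Il1rn*, 9 were higher in GCSF-OHT and 2 in IL3-OHT, with a median log2 fold change of 0.53. *Il1r2*, the decoy receptor for IL1, had 1548, 1663 and 1639 in GCSF-OHT and 59.4, 91.5 and 85.8 in IL3-OHT (4.36, SE 0.14, adjusted p = 2.41e-54). *Il17ra*, the receptor for IL17, followed with 2.35, from 3012, 3034 and 3014 in IL3-OHT to 14809, 14803 and 16551 in GCSF-OHT. On the IL3 side were *Il1rn*, the receptor antagonist of IL1 (-1.85), and *Il10ra*, with 0 reads in GCSF-OHT and 4.75, 7.32 and 4.71 normalized counts in IL3-OHT.

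Genes known to respond to STAT factors split by gene. Of 17 tested, 8 were higher in IL3-OHT and 3 in GCSF-OHT, with a median log2 fold change of -0.45. *Cish* (chr9:107296026-107302784), a feedback inhibitor that STAT5 induces, had 589, 535 and 499 normalized counts in GCSF-OHT and 5970.1, 6034 and 6067 in IL3-OHT (-3.48, SE 0.08, adjusted p = 2.06e-69). *Socs1* and *Socs2*, feedback inhibitors of the same family, had -3.22 and -1.99, while *Socs3*, the inhibitor that STAT3 induces, had 9511, 8857 and 9088 in GCSF-OHT and 7657, 7475 and 7762 in IL3-OHT and was not called (0.26, adjusted p = 0.0031). The cytokine gene *Osm* was -1.98, the cyclin gene *Ccnd2* was -1.98 and the survival gene *Bcl2l1* was -1.38. Members higher in GCSF-OHT were *Bcl3* (3.07), a nuclear IkB protein, *Fgl2* (2.93), a fibrinogen-like protein, and *Gadd45g* (1.87). *Fgl2* had 3291, 3442 and 3746 in GCSF-OHT and 500.0, 446 and 425 in IL3-OHT, and the groups of these 3 genes did not overlap. Of all genes tested, 28.2% had groups that did not overlap with GCSF-OHT higher and 29.5% with IL3-OHT higher.

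Promoters were searched for the letters that STAT, C/EBP, EGR and PU.1 factors are known to bind, in RefSeq windows of 300 bases (GRCm38.p6, 250 before to 50 after the start, both strands). Of the called genes, 1557 on the GCSF side with 1972 windows and 1843 on the IL3 side with 2367 windows matched a symbol, and shares were set against 32851 windows of all genes. The STAT letters TTCCNGGAA were in 1.72% of windows on the GCSF side, 0.972% on the IL3 side and 1.15% of all windows. The wider letters TTCNNNGAA, which include the former and were chosen with the values in view, were in 9.38%, 5.41% and 8.30%. The C/EBP letters TTGCNNAA were in 9.94%, 8.91% and 10.8%, the PU.1 letters GAGGAAG in 14.7%, 14.7% and 13.6%, and the EGR letters GCGTGGG in 7.66%, 8.91% and 5.04%. Among windows of the genes tested, the shares were 1.28% for TTCCNGGAA, 7.05% for TTCNNNGAA, 9.05% for TTGCNNAA, 13.6% for GAGGAAG and 7.92% for GCGTGGG. A match is a description of the letters and binding data were not analysed here.

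Stretches of 5 promoters, chosen after the values had been seen because these genes differed strongly and hold such letters, are shown 5′ to 3′ on the strand of the gene, with the letters of TTCNNNGAA (for *Saa3* of TTGCNNAA, here on the opposite strand) in capitals. They are *Cish* (chr9:107296579-107296683, plus strand, higher in IL3-OHT), the beta-casein gene *Csn2* (chr5:87699465-87699565, minus strand, higher in IL3-OHT), *Fgl2* (chr5:21372583-21372683, plus strand, higher in GCSF-OHT), *Il1r2* (chr1:40085933-40086033, plus strand, higher in GCSF-OHT) and *Saa3* (chr7:46715716-46715816, minus strand, higher in GCSF-OHT). All 5 RefSeq starts used here lie inside the span that GENCODE gives the gene, furthest inside for *Il1r2* and next for *Cish*.
Cish: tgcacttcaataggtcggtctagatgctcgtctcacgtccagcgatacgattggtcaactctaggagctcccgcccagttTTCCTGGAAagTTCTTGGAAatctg
Csn2: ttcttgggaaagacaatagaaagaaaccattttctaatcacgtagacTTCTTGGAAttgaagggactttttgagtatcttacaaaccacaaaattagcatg
Fgl2: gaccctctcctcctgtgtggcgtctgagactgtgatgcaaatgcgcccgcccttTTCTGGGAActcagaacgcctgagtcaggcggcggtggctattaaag
Il1r2: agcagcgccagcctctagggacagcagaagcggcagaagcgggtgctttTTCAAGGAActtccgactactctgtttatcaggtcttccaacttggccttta
Saa3: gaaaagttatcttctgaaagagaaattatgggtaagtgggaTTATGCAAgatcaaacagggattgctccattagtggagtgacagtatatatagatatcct

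The *Cish* stretch holds 2 matches that lie 2 bases apart at the RefSeq start, and the first of them also fits TTCCNGGAA. The other stretches hold 1 match each, 93 bases before the start for *Csn2*, 36 for *Fgl2* and further upstream for *Il1r2* and *Saa3*. Genes with matches were found on both sides of the comparison.

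Most immediate-early factors, which ERK signalling is known to induce, and most genes of an ERK feedback list were higher in IL3-OHT. Of 18 EGR, AP-1 and other immediate-early genes tested, 12 were higher in IL3-OHT and 0 in GCSF-OHT, with a median log2 fold change of -1.04. *Egr2* had 25.6, 30 and 44.5 normalized counts in GCSF-OHT and 264, 376 and 367 in IL3-OHT (-3.31, SE 0.22, adjusted p = 2.30e-27), and *Egr1* had a log2 fold change of -2.73 (SE 0.18, adjusted p = 4.09e-28). The EGR corepressor gene *Nab2* was also higher in IL3-OHT (-0.83, SE 0.12, adjusted p = 9.48e-10), while *Nab1* had 1142, 1142 and 1059 in GCSF-OHT and 835, 843 and 813 in IL3-OHT and stayed under the fold threshold (0.42). The AP-1 genes *Fosl1*, *Fosb*, *Jund* and *Fos* had -2.24, -1.50, -1.38 and -1.04, and *Fosl2* had 0.40 and was not called. Of 11 genes tested of the ERK feedback list, 9 were higher in IL3-OHT and 0 in GCSF-OHT (-1.15 as median). The count and the median include *Etv5* and *Phlda1*, which are neither phosphatase nor Sprouty genes. *Etv5*, an ETS factor downstream of ERK, had 8.85, 1.3 and 8.56 in GCSF-OHT and 150.8, 126.3 and 152.7 in IL3-OHT (-4.58, SE 0.29, adjusted p = 5.59e-29). The phosphatase genes *Dusp4*, *Dusp1* and *Dusp6* had -3.37, -1.71 and -1.06, and *Phlda1* had -1.95. Sprouty genes *Spry1* (0.34) and *Spry2* (-0.12) were not called.

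Genes of neutrophil granules and cytosol, where called, were mostly higher in GCSF-OHT, with exceptions. Of 8 genes tested of the primary granule list (of 10), 4 were higher in GCSF-OHT and 0 in IL3-OHT, with a median of 0.55. The count and the median include *Igf1r*, a growth factor receptor, and *Serpinb1a*, a cytosolic protease inhibitor, which are not granule proteins and were not called (-0.52 and -0.22). *Mpo*, myeloperoxidase, had 16178, 15447 and 19429 normalized counts in GCSF-OHT and 2727, 2635 and 2665 in IL3-OHT (2.66, SE 0.10, adjusted p = 8.28e-47). *Elane*, neutrophil elastase, had 1.20, and *Prtn3*, proteinase 3, had 34398, 33787 and 33183 and 23828, 24025 and 24299 and stayed under the fold threshold (0.49). Of 18 genes of the secondary and tertiary granule list, which also holds the leukotriene receptor *Ltb4r1* and the actin-binding *Cnn2*, 10 were higher in GCSF-OHT and 2 in IL3-OHT (0.70 as median). The gelatinase gene *Mmp9* had 2679, 2681 and 4000.1 in GCSF-OHT and 566, 641 and 583 in IL3-OHT (2.36, SE 0.20, adjusted p = 6.10e-21), haptoglobin (*Hp*) had 2.02 and lipocalin 2 (*Lcn2*) had 1.31. Lactoferrin (*Ltf*), the defining protein of secondary granules, went the other way, with 60, 57.4 and 52.2 in GCSF-OHT and 193.6, 225 and 213.02 in IL3-OHT (-1.88, SE 0.30, adjusted p = 3.42e-08). *Pglyrp1*, which binds peptidoglycan, was also higher in IL3-OHT (-1.30), and *Chil3* (0.03) and *Ngp* (0.28) were not called.

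Cytosolic and secreted neutrophil proteins had 11 of 16 genes higher in GCSF-OHT and 2 in IL3-OHT, with a median of 0.81. The calprotectin genes *S100a9* and *S100a8* had log2 fold changes of 2.06 and 1.56 (adjusted p = 2.41e-52 and 2.64e-31). Stefin A genes, near-identical copies whose reads can be split, went in both directions, *Stfa1* with 1.74 and *Stfa2* with -1.90. *Slpi*, a secreted protease inhibitor, had 17808, 19182 and 17045 in GCSF-OHT and 41196, 41923 and 42446 in IL3-OHT (-1.22, SE 0.08, adjusted p = 4.24e-27). The oxidase that makes superoxide had 3 of 7 genes higher in GCSF-OHT and 0 in IL3-OHT. These were its catalytic subunit *Cybb*, with 1304, 1367 and 1922 in GCSF-OHT and 156.8, 197.6 and 131.96 in IL3-OHT (3.23, SE 0.21, adjusted p = 4.09e-28), the regulatory subunit *Ncf4* (2.51) and the proton channel *Hvcn1* (1.85). The membrane partner *Cyba* had -0.21 and was not called.

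Transcription factors of neutrophils differed little at this time. Of 9 tested, 1 was called, *Cebpa*, with 17666, 16879 and 18087 normalized counts in GCSF-OHT and 13739.5, 9575 and 11412 in IL3-OHT (0.61, SE 0.13, adjusted p = 1.22e-05). Without IL3-OHT replicate 2, the lowest of its group, *Cebpa* had 0.49 and was not called, which left 0 members called. *Gfi1* had 3183, 3214 and 3114 in GCSF-OHT and 2986, 2556 and 2611 in IL3-OHT (0.23, adjusted p = 7.14e-04), *Cebpe* had 0.10 (adjusted p = 0.42) and *Per3* had 0.31 (adjusted p = 4.98e-05), all under the fold threshold. The macrophage and monocyte factors had 3 genes higher in GCSF-OHT and 3 in IL3-OHT of 12 tested. *Irf8*, a factor of monocyte fate, was low in both groups, with 3.94, 2.61 and 1.71 in GCSF-OHT and 27.3, 27.4 and 28.3 in IL3-OHT (-2.98, SE 0.42, adjusted p = 6.03e-10). *Pparg*, the lipid-sensing receptor of macrophages, had 1019, 1049.7 and 917 in GCSF-OHT and 3199, 3338 and 3396 in IL3-OHT (-1.73). *Zeb2* had -0.39 and was under the fold threshold, and *Irf7* (2.22) and *Bach1* (0.79) were among those higher in GCSF-OHT. The genes *Klf4*, *Maf* and *Spic* had 0 reads in all 6 libraries.

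Markers of monocytes and macrophages did not go in a single direction. Of 23 tested (of 28), 9 were higher in IL3-OHT and 4 in GCSF-OHT, with a median of -0.46. Among the called members, 1 had at most 3 reads in every one of the 6 libraries. On the IL3 side were *Cd68* (-1.14), *Cd14* (-0.95), the metalloelastase *Mmp12*, with 8.85, 10.4 and 17.1 in GCSF-OHT and 73.6, 93.3 and 80.1 in IL3-OHT (-2.71), the mannose receptor *Mrc1* and the integrin *Itgam* (-0.87). The GCSF-OHT libraries held only 2 reads of *Mrc1* against 50 in IL3-OHT, a ratio of 24.6 (95% counting interval 6.47 to 209.01). On the GCSF side were *Cx3cr1* (1.65), *F13a1* (1.50), *Ccr2* (0.95) and *Csf1r*, which was low in both groups, with 13.8, 18.3 and 17.1 in GCSF-OHT and 3.56, 4.57 and 6.6 in IL3-OHT (1.58). *Adgre1*, the gene of F4/80, had 207.6, 207.3 and 349 in GCSF-OHT and 323, 364 and 316 in IL3-OHT, with overlapping groups (-0.43, adjusted p = 0.14). Without GCSF-OHT replicate 3, the highest of its group, *Adgre1* had -0.68 and was called.

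Lysosomal genes had 10 of 30 members higher in IL3-OHT and 1 in GCSF-OHT, with a median of -0.15. Without GCSF-OHT replicate 3 the count on the GCSF side was 0, and without GCSF-OHT replicate 1 or IL3-OHT replicate 2 it was 2. The proton pump subunit *Atp6v0d2*, which is enriched in macrophages and osteoclasts, had 86.6, 69.1 and 98.4 in GCSF-OHT and 448, 537 and 522 in IL3-OHT (-2.56, SE 0.16, adjusted p = 1.76e-30). The cathepsin genes *Ctsl* (-1.17), *Ctsh* (-0.92) and *Ctsa* (-0.91) were also higher in IL3-OHT. Genes of cholesterol efflux and lipid handling had 6 of 15 higher in IL3-OHT and 1 in GCSF-OHT (0 without GCSF-OHT replicate 3 or IL3-OHT replicate 3). *Abcg1*, a cholesterol exporter, had 2576, 2399 and 2383 in GCSF-OHT and 12969.9, 12235 and 12746 in IL3-OHT (-2.37, SE 0.06, adjusted p = 2.50e-62), *Lpl*, lipoprotein lipase, had -1.47 and *Fabp5* had -1.43. MHC class II genes were at low levels in both groups, 72.8 to 86.4 normalized counts in all in GCSF-OHT and 213.96 to 247 in IL3-OHT, and 4 of 5 tested were higher in IL3-OHT. Among 12 genes of MHC class I presentation, 3 were higher in GCSF-OHT, among them *Erap1* (1.46), and 2 in IL3-OHT, among them *Calr* (-0.96), a count that was 1 without GCSF-OHT replicate 1.

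More chemokine genes were called on the IL3 side, and more chemokine receptor genes on the GCSF side. Of 19 inflammatory chemokines and cytokines tested (of 26), 8 were higher in IL3-OHT and 4 in GCSF-OHT, with a median of -0.56. *Cxcl3*, a neutrophil attractant, had 29.5, 31.3 and 22.2 normalized counts in GCSF-OHT and 743, 749 and 750.3 in IL3-OHT (-4.72, SE 0.25, adjusted p = 4.94e-35). *Ccl9* and *Ccl6*, chemokines of myeloid cells, had -3.74 and -3.34 (adjusted p = 1.94e-67 and 1.37e-72), and osteopontin (*Spp1*) had 13385, 13528 and 13127 in GCSF-OHT and 81702, 91898 and 87608 in IL3-OHT (-2.70). The macrophage growth factor gene *Csf1* went the other way, with 273, 215.2 and 272 in GCSF-OHT and 39.2, 40.3 and 36.8 in IL3-OHT (2.67, SE 0.21, adjusted p = 2.53e-22). Of 15 receptors for chemokines, formyl peptides and other attractants, 7 were higher in GCSF-OHT and 1 in IL3-OHT (0.57 as median). *Cxcr2*, through which neutrophils follow CXC chemokines, had 3575, 3418 and 3203 in GCSF-OHT and 424, 511 and 501 in IL3-OHT (2.83, SE 0.09, adjusted p = 2.72e-53). The formyl peptide receptor gene *Fpr1* had 2.80 and *Ptafr*, the receptor for platelet-activating factor, had 2.44. The complement receptor gene *C3ar1* was higher in IL3-OHT (-3.26), with 4.92, 5.22 and 3.42 in GCSF-OHT and 32.1, 66.8 and 62.2 in IL3-OHT.

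Of 19 Toll-like receptor and adaptor genes tested, 9 were higher in GCSF-OHT and 3 in IL3-OHT (1 without IL3-OHT replicate 2). *Tlr1* had 115.1, 110.8 and 118.1 in GCSF-OHT and 8.31, 10.1 and 14.1 in IL3-OHT (3.32, SE 0.42, adjusted p = 8.33e-12), *Tlr13*, a sensor of bacterial RNA, had 1.86 and the adaptor *Myd88* had 1.67. Paired receptors, which come in inhibitory and activating forms, had 13 of 24 higher in GCSF-OHT and 2 in IL3-OHT, with a median of 0.91. *Pirb*, an inhibitory receptor for MHC class I, had 9833, 9891 and 10756 in GCSF-OHT and 1918, 2118 and 1872 in IL3-OHT (2.37, SE 0.14, adjusted p = 5.09e-31). *Pirb* and *Sirpb1a* (2.65) belong to families of similar copies whose reads can be split, while *Clec5a*, a lectin receptor, had 1.63. Of 17 integrins and selectin ligands, 9 were higher in IL3-OHT and 4 in GCSF-OHT. *Itgb3* had 16.7, 19.6 and 5.99 in GCSF-OHT and 74.8, 64 and 66.9 in IL3-OHT (-2.35), whereas *Itgal*, the alpha chain of LFA-1, had 359, 366 and 338 and 27.3, 32.9 and 33 (3.47, SE 0.17, adjusted p = 2.52e-38). Among 7 Fc receptor genes, 4 were higher in IL3-OHT, among them *Fcer1g* (-0.99), and 1, *Ms4a2* (2.95), in GCSF-OHT, a count that was 2 without GCSF-OHT replicate 3.

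Interferon-stimulated genes were higher in GCSF-OHT, with few exceptions. Of 21 tested, 19 were higher in GCSF-OHT and 1 in IL3-OHT, with a median log2 fold change of 2.15, or 2.05 with members that had 0 reads in a group set to their bound. *Zbp1*, a sensor of nucleic acids, had 361, 379 and 420.1 normalized counts in GCSF-OHT and 53.4, 34.8 and 29.2 in IL3-OHT (3.32, SE 0.21, adjusted p = 1.15e-29). *Irf7*, the factor that amplifies the interferon response, had 332, 383 and 450.1 in GCSF-OHT and 74.8, 88.7 and 82.9 in IL3-OHT (2.22, SE 0.25, adjusted p = 6.83e-14). *Ifit3* and *Oas3* had 4.01 and 3.71, with 45.3, 86.1 and 63.3 and 19.7, 22.2 and 43.6 in GCSF-OHT. The members differed much in level, and several were close to the floor in IL3-OHT. *Stat2*, a factor that carries the signal, had 0.95 (SE 0.07, adjusted p = 1.22e-24). *Bst2*, tetherin, was the exception on the IL3 side, with 362, 353 and 383 in GCSF-OHT and 905, 807 and 725 in IL3-OHT (-1.14, SE 0.08, adjusted p = 1.54e-24).

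**Figure D3:**
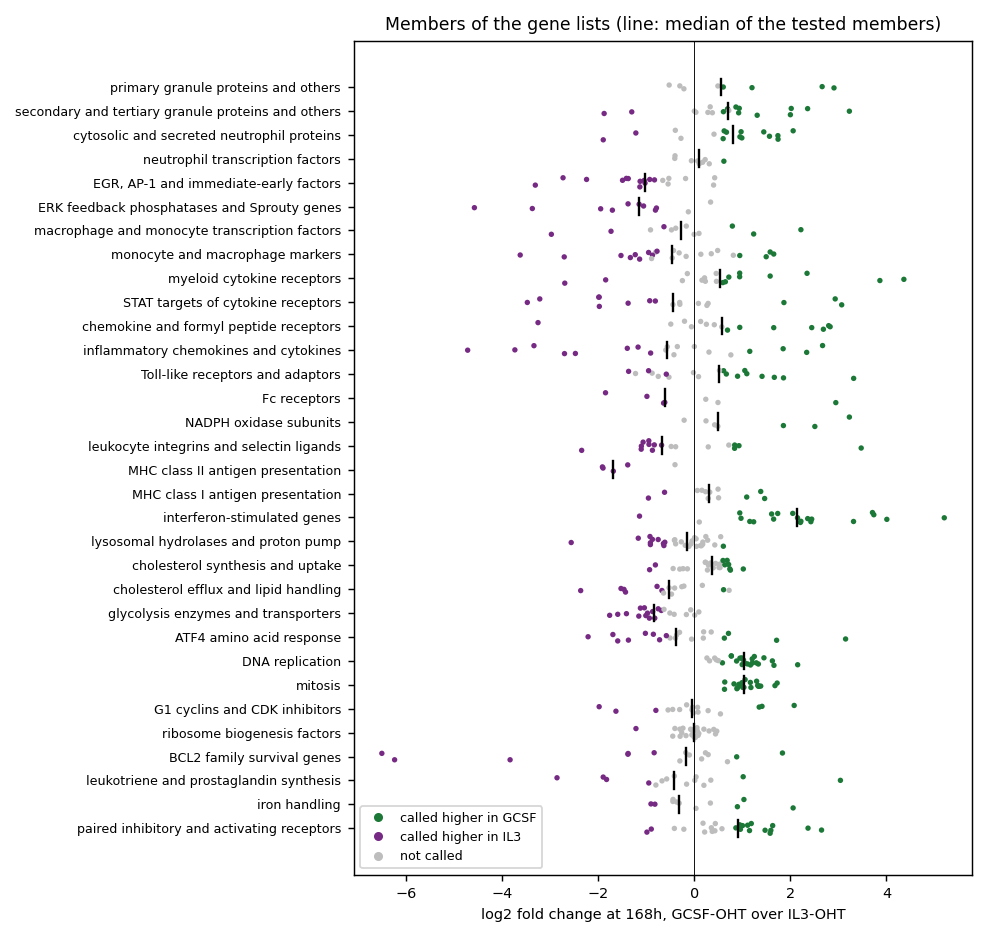
Log2 fold change of GCSF-OHT over IL3-OHT at 168h (x axis) of each tested member of 32 gene lists (rows), with a vertical line at the median of the list. Green and purple points are called members, grey points are not called; all 20 mitosis genes lie to the right of 0, with a median of 1.04, and 13 of 20 genes of glycolysis and its transporters are purple, with a median of -0.85.

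Genes of DNA replication and mitosis were mostly higher in GCSF-OHT. Of 25 replication genes tested, 20 were higher in GCSF-OHT and 0 in IL3-OHT, with a median of 1.02, and of 20 mitosis genes 20 were higher in GCSF-OHT, with a median of 1.04. *Tyms*, thymidylate synthase, had 529, 580.3 and 515 normalized counts in GCSF-OHT and 129.4, 127.2 and 107.5 in IL3-OHT (2.15, SE 0.10, adjusted p = 2.90e-39). *Mki67*, a marker of dividing cells, had 8775, 9016 and 8219 in GCSF-OHT and 2673, 2934 and 2522 in IL3-OHT (1.68, SE 0.09, adjusted p = 3.00e-36). The kinesin gene *Kif11* had 1.72 and the primase gene *Prim1* had 1.66, and the groups did not overlap for any of these 4, as for 28.2% of all genes with GCSF-OHT higher. Genes of the G1 phase were split, 3 of 17 higher in GCSF-OHT and 3 in IL3-OHT, close to the 12.0% and 16.0% of all genes. The cyclin gene *Ccnd2* had 4875, 4891 and 4666 in GCSF-OHT and 18377, 19379 and 19273 in IL3-OHT (-1.98, SE 0.05, adjusted p = 8.85e-65), and the CDK inhibitor gene *Cdkn1a* (p21) had -1.63. The inhibitor genes *Cdkn2c* and *Cdkn2d* had 1.41 and 1.35, and *Mxd1*, an antagonist of MYC, had 11571, 10888 and 8729 in GCSF-OHT and 2549, 2388 and 2394 in IL3-OHT (2.08, SE 0.09, adjusted p = 5.50e-44). *Myc* itself had 2073, 2013 and 1920.0 and 2068, 2006 and 2093 and was not called (-0.04). Of 24 ribosome biogenesis genes, 1 was called, *Npm1*, higher in IL3-OHT (-1.22).

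Survival genes of the BCL2 family had 6 of 15 members higher in IL3-OHT and 2 in GCSF-OHT. On the IL3 side were the BCL2A1 copies, with *Bcl2a1a* at -3.84, antiapoptotic *Bcl2l1* (-1.38) and the proapoptotic genes *Bbc3* (-1.38) and *Bax* (-0.84). The members on the GCSF side, *Bmf* with 738, 659 and 696 in GCSF-OHT and 176.95, 189.4 and 219.6 in IL3-OHT (1.83) and *Bid* (0.88), are proapoptotic. *Mcl1*, the survival gene on which neutrophils depend, had -0.30 and was not called.

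Most genes of glycolysis and its transporters were higher in IL3-OHT. Of 20 tested, 13 were higher in IL3-OHT and 0 in GCSF-OHT, with a median of -0.85, and their summed level was 442105 to 535294 normalized counts in GCSF-OHT and 953987 to 974533 in IL3-OHT. Of the 3 transporters among them, *Slc2a1* was called (-1.01) and *Slc2a3* and *Slc16a3* were not. *Gpi1* had 56154, 50251 and 46556 in GCSF-OHT and 158715, 147017 and 155293 in IL3-OHT (-1.60, SE 0.08, adjusted p = 1.60e-35). *Gapdh* had 101807, 95383 and 86622 in GCSF-OHT and 256907, 243234 and 254710.0 in IL3-OHT (-1.41, SE 0.09, adjusted p = 3.52e-29), and *Aldoc* had -1.76. The pyruvate kinase gene *Pkm* had 115662, 108541 and 101965 and 109878, 106089 and 108139 and was not called (0.01). *Vegfa*, which hypoxia is known to induce, was also higher in IL3-OHT (-1.40). Within GCSF-OHT, replicate 3 was the lowest library for *Gpi1*, *Gapdh* and *Pkm*.

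Cholesterol synthesis and uptake had 7 of 24 genes higher in GCSF-OHT and 2 in IL3-OHT, with a median of 0.37. The demethylase gene *Cyp51* had 0.75, while *Mvd* (-0.93) and *Sqle* (-0.81) were higher in IL3-OHT. Targets of the amino acid stress factor ATF4 were split, 8 of 20 higher in IL3-OHT and 4 in GCSF-OHT. *Slc7a11*, the cystine transporter, had 292, 333 and 388 in GCSF-OHT and 40.4, 34.8 and 35.8 in IL3-OHT (3.15, SE 0.21, adjusted p = 1.10e-26), whereas *Pycr1*, an enzyme of proline synthesis, had 118.1, 127.8 and 83 and 512, 498 and 501 (-2.21, SE 0.10, adjusted p = 1.40e-42). Among 11 iron genes, 3 were higher in GCSF-OHT, led by the phagosomal transporter *Slc11a1* (2.06) with the transferrin receptor *Tfrc* (1.03), and 2 in IL3-OHT, the ferritin light chain *Ftl1* (-0.90) and heme oxygenase *Hmox1* (-0.82). Of 15 eicosanoid genes, 2 were higher in GCSF-OHT, among them the cyclooxygenase gene *Ptgs1* (1.02), and 4 in IL3-OHT, among them its inducible relative *Ptgs2*, with 72.8, 73 and 65.9 in GCSF-OHT and 200.7, 265 and 304 in IL3-OHT (-1.83).

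The part of other cell types in the differences was not tested, and the values of their markers follow. Of 15 mast cell and basophil markers, 7 were tested, 3 were higher in GCSF-OHT and 0 in IL3-OHT (1 without IL3-OHT replicate 1), and 5, among them *Fcer1a*, *Tpsb2* and *Tpsab1*, had 0 reads in all 6 libraries. The summed level of these markers was 408 to 453 normalized counts in GCSF-OHT and 76 to 115.3 in IL3-OHT, and *Hdc*, histidine decarboxylase, had 293, 267 and 296 in GCSF-OHT and 21.4, 32.9 and 33 in IL3-OHT (3.28, SE 0.21, adjusted p = 6.85e-28). Erythroid and megakaryocyte markers had 4 of 7 tested higher in IL3-OHT, among them *Vwf* (-1.49), a summed level of 499 to 619 in GCSF-OHT and 1485 to 1555 in IL3-OHT, and no globin reads. Eosinophil markers summed to 5.9 to 12.8 in GCSF-OHT and 13.2 to 22.9 in IL3-OHT, dendritic cell markers to 86.6 to 111.2 and 160.3 to 225, and lymphocyte markers to 28.2 to 36.4 and 32.1 to 49. Of 5 lymphocyte markers tested, *Klrb1c* (3.42) was higher in GCSF-OHT and *Il7r* (-2.68) in IL3-OHT. Without *Klrb1c* the lymphocyte sums were 5.2 to 16.7 in GCSF-OHT and 30.9 to 48.1 in IL3-OHT. Progenitor markers were not low, with a sum of 12714 to 12848 in GCSF-OHT and 9956 to 10233 in IL3-OHT. They had 3 of 10 tested higher in GCSF-OHT, *Kit* (0.78), *Ly6a* (1.46) and *Myb* (0.86), and 1, *Sox4* (-1.34), in IL3-OHT (2 without GCSF-OHT replicate 1 or IL3-OHT replicate 1).

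The same comparison in the 6 libraries of 160h, 8 h earlier, called 2198 genes (12.6%) higher in GCSF-OHT and 2720 (15.6%) higher in IL3-OHT. None of these libraries was in the 168h groups, but both comparisons came from the same fit and share its error estimate for each gene. The calls at both times are therefore not independent. Called at both times on the GCSF side were 1652 genes, 78.8% of the 168h list and 75.2% of the 160h list. On the IL3 side 2087 were called at both times, 74.8% of the 168h list and 76.7% of the 160h list, and 2 genes were called in opposite directions. The shares of the 168h lists stand against 12.6% and 15.6% of all genes called at 160h, and those of the 160h lists against 12.0% and 16.0% called at 168h. Of the 4886 genes called at 168h, 4763 (97.5%) had the same sign at 160h. *Saa3* had 6.24 at 160h, *E2f2* 5.56, *Csf3r* 4.23, *Fgf23* -9.11 and *Cish* -3.28. A gene of the lists called at 168h and not at 160h is *Gp1bb*, a platelet glycoprotein gene, with -2.05 at 168h and -0.12 at 160h. *Cebpe* was not called at 168h and had 0.73 at 160h, and *Cebpa* had 1.21.

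Of the lists, the interferon-stimulated genes had 20 of 21 members called higher in GCSF-OHT at 160h and 1 in IL3-OHT, the mitosis genes 19 of 20 and 0, and the replication genes 21 of 25 and 0. On the other side, 11 of 18 immediate-early genes, 8 of 11 ERK feedback genes and 12 of 20 genes of glycolysis and its transporters were called higher in IL3-OHT at 160h. Higher in GCSF-OHT at 160h were 1 ERK feedback gene, against 0 at 168h, and 0 immediate-early and 0 glycolysis genes. The secondary granule genes had 12 and 2 and the cytosolic neutrophil genes 8 and 3 called in GCSF-OHT and IL3-OHT. The direction of each of these lists was the same at both times.

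**Figure D4:**
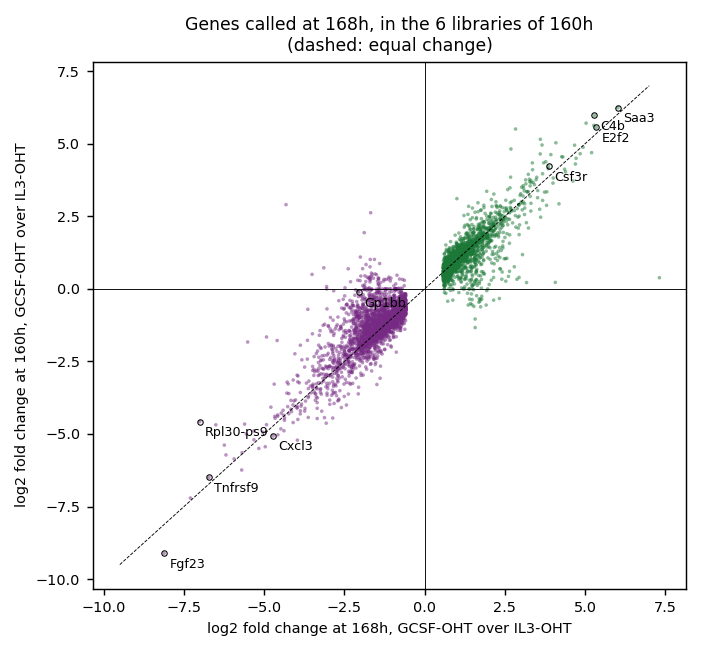
Log2 fold change of GCSF-OHT over IL3-OHT at 160h (y axis) by that at 168h (x axis) for the 4886 genes called at 168h, 1 point per gene, green for higher in GCSF-OHT at 168h and purple for higher in IL3-OHT, with a dashed line of equal change. Of the genes, 97.5% lie in the quadrants of equal sign, from *Fgf23* (-8.12 and -9.11) to *Saa3* (6.02 and 6.24).

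Whether the difference was there before OHT was asked with GCSF 0h against undifferentiated cells, the same cytokines without OHT. Tested as the difference between the 168h and the 0h contrast, 2520 genes (14.5%) had a more positive and 1960 (11.3%) a more negative contrast at 168h, 25.7% in all. Of the 4886 genes called at 168h, 2049 (41.9%) were among them, and since both tests use the 168h libraries this count is a description only. *C4b* had 51.7 ± 15.3 normalized counts in undifferentiated cells and 40.6 ± 11.2 at GCSF 0h (SD, n = 3), a log2 fold change of -0.34, and its contrast was 5.63 larger at 168h (adjusted p = 1.32e-33, limma). *Saa3* had 1.00 at 0h and a difference of 5.03 (adjusted p = 6.16e-43, limma). The contrast of both genes was much larger at 168h than before OHT, where that of *C4b* was under the fold threshold and that of *Saa3* beyond it. On the IL3 side, *Bcl2a1d* had 0.31 at 0h and a difference of -6.56. Other genes had a contrast of the same size at both times, as far as the error showed. *Hdc* had 3.13 at 0h against 3.28 at 168h (difference 0.14, adjusted p = 0.75, limma), *Mki67* had 1.70 and 1.68 (-0.02, adjusted p = 0.91, limma) and *Fosl1* had -2.26 and -2.24 (0.02, adjusted p = 0.98, limma).

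For the cytokine receptors, *Csf3r* had 2.38 at 0h and 3.86 at 168h, a difference of 1.49 (adjusted p = 5.45e-30, limma), and *Il1r2* had 1.05 and 4.36, a difference of 3.32 (adjusted p = 4.28e-30, limma). *Csf3r* had 1099 ± 75.7 normalized counts in undifferentiated cells and 5718 ± 403 at GCSF 0h (SD, n = 3). The neutrophil factor gene *Gfi1* had a contrast before OHT that was mostly gone at 168h, from 1034 ± 20.3 in undifferentiated cells to 9116 ± 673 at GCSF 0h (SD, n = 3), 3.14 on the log2 scale against 0.23 at 168h, a difference of -2.91 (adjusted p = 2.77e-58, limma). *Cebpe* (1.35 and 0.10) and *Per3* (1.44 and 0.31) had differences of -1.25 and -1.13 (adjusted p = 2.62e-13 and 2.09e-19, limma). *Egr1* had -3.50 at 0h and -2.73 at 168h (difference 0.76, adjusted p = 0.0084, limma, or 0.60 and adjusted p = 0.058 without GCSF 0h replicate 3), while *Nab2* had -2.90 and -0.83 (difference 2.07, adjusted p = 4.13e-21, limma). The EGR gene *Egr3*, which was not called at 168h and was near the floor there, had -6.81 at 0h.

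The change from undifferentiated cells gives the side from which a difference at 168h came, with the undifferentiated libraries shared by both changes. *Csf3r* changed by 3.25 on the log2 scale in GCSF-OHT and by -0.62 in IL3-OHT, *Saa3* by 6.68 and 0.65, and *E2f2* by 4.56 and -0.79. These differences lay mostly on the GCSF side. *Bcl2a1d* changed by 1.46 in GCSF-OHT and 7.70 in IL3-OHT, mostly on the IL3 side.

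Several of the genes higher in IL3-OHT were already high in undifferentiated cells, which grow in IL3. *Fgf23* changed by -7.60 in GCSF-OHT and 0.51 in IL3-OHT (adjusted p = 0.36, limma), *Tnfrsf9* by -6.56 and 0.16 (adjusted p = 0.35, limma) and *Cish* by -3.98 and -0.50 (adjusted p = 3.05e-08, limma). *Gapdh* likewise changed by -1.40 in GCSF-OHT and 0.01 in IL3-OHT (adjusted p = 0.93, limma), and *Cxcl3* by -4.89 and -0.17 (adjusted p = 0.6, limma). For these 5 genes the level in IL3-OHT stayed within a log2 change of 0.58 of the undifferentiated cells. *Egr1* and *Egr2* went apart from both sides, by -1.40 and -2.21 in GCSF-OHT and 1.33 and 1.11 in IL3-OHT, and so did the chemokine gene *Ccl9* (-1.64 and 2.10). *Mki67* changed by 1.29 and -0.39 and *Tyms* by 1.31 and -0.84, and the change of *Mki67* in IL3-OHT was under the fold threshold.

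Some neutrophil genes rose in both groups. *Ltf* rose by 2.73 in GCSF-OHT and by 4.61 in IL3-OHT, and *Gfi1* by 1.62 and 1.39. *Cebpe* had 0.44 and 0.34, under the fold threshold. *Mmp9* rose by 7.73 and 5.37, from 13.5 ± 0.739 normalized counts in undifferentiated cells (SD, n = 3). *Cybb* was below the floor in undifferentiated cells, with 1.22 ± 1.18 (SD, n = 3), against 1531 ± 340.2 in GCSF-OHT and 162.1 ± 33.2 in IL3-OHT (SD, n = 3). *Slc7a11* changed by -1.83 and -4.98, and the macrophage genes *Cd68* and *Pparg* differed in sign between the groups (-0.50 and 0.64 for *Cd68*, -0.69 and 1.04 for *Pparg*).

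Some genes changed direction. Called in both contrasts with opposite signs, and called in the difference, were 162 genes that were lower in GCSF before OHT and higher in GCSF-OHT at 168h, and 73 genes the other way round. *Slc7a11* had 1194 ± 54.1 in undifferentiated cells and 83.9 ± 10.4 at GCSF 0h (SD, n = 3), -3.82 on the log2 scale, and 3.15 at 168h. *Ptafr* had -2.35 before OHT and 2.44 at 168h, *Tlr13* -2.20 and 1.86, and the annexin gene *Anxa1* -1.71 and 1.45. All of these receptor, transporter and annexin genes were lower in GCSF before OHT and higher in GCSF-OHT at 168h. In the opposite direction, *Cd36*, the scavenger receptor for oxidized lipid, had 1.88 before OHT and -1.53 at 168h.

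**Figure D5:**
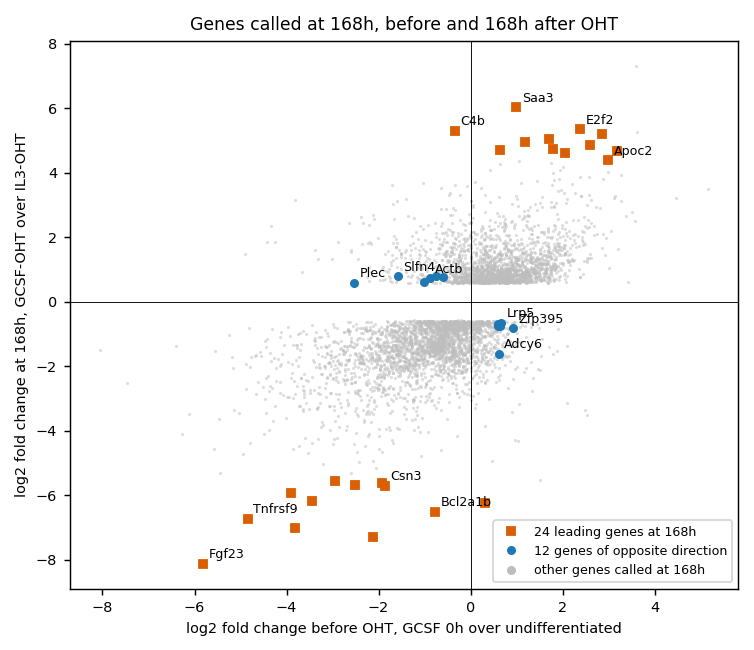
Log2 fold change of GCSF-OHT over IL3-OHT at 168h (y axis) by that of GCSF 0h over undifferentiated cells, before OHT (x axis), for the 4886 genes called at 168h. Orange squares are the 24 genes that lead the 168h comparison, from *Fgf23* (-5.82 before OHT) to *Chil1* (3.19 before OHT) along x, and blue points are 12 abundant genes of opposite direction such as *Plec* (-2.53 before OHT and 0.58 at 168h).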

How the data were processed

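Poly(A) RNA of PUER cells was sequenced by the authors in 165 libraries. The deposited table holds normalized counts for 36255 genes, a signal that the authors made with Salmon on GRCm38 and DESeq2 median-of-ratios scaling. How transcript estimates became gene values, and whether counting used strand, are not given in the sources used here. All nonzero values of the 6 libraries came out as whole reads (tolerance 1e-06), so these reads were recovered and used for counting intervals, for the floor of 3 reads, and for edgeR 4.0.16 and DESeq2 1.42.0 as alternatives. With these reads as counts, edgeR's quasi-likelihood test called 1916 genes higher in GCSF-OHT and 2299 in IL3-OHT.

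Log2(normalized count + 1) was fitted with limma 3.58.1 (lmFit with 1 mean per group, eBayes with trend, R 4.3.3) over 159 libraries of 54 groups. Left out were IL3-OHT 96h and IL3-OHT 144h, as in the study. A gene entered the test if any library reached 5, and p-values were adjusted by Benjamini-Hochberg. An adjusted p is limma's unless another tool is named, and the fold changes are on this log2 scale, which understates those of low genes. The threshold of 0.58 is that of the study's methods. Groups were taken from the titles. The GCSF 0h titles name OHT, but their descriptions and treatments place them before it. Scripts were tested on simulated data.

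The comparison, the members and the 38 gene lists (615 genes) were chosen with earlier results of these data known. Named genes are the 12 with the largest change in each direction (mean of at least 50 in the higher group, no overlap, no predicted genes), the 4 called members with the largest change of each list and those opposite to most, the fate genes of the study's model, and the 6 most abundant genes of each direction that changed sign. A few genes that these rules pick are not reported here. Other names were added after their values had been seen. Alternatives were another pseudocount, filter, scaling, fit, tool, a replicate block, and each library left out. Promoters are from RefSeq (GRCm38.p6). Coordinates are those of the GENCODE annotation of GRCm38.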

Additional observations from a re-analysis of the deposited data

Results flagged for a closer look

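Among the genes called in both contrasts with opposite signs, the 6 most abundant in each direction are given with the difference between the 168h and the 0h contrast on the log2 scale, each called by limma's interaction contrast. Lower in GCSF before OHT and higher in GCSF-OHT at 168h were *Plec*, the cytoskeletal linker plectin (difference 3.11, from -2.53 to 0.58, adjusted p = 1.30e-37), *Slfn4* (2.37, from -1.59 to 0.78, adjusted p = 4.73e-40) and *Actb*, beta-actin (1.61, from -0.89 to 0.72, adjusted p = 6.52e-39). *Msn*, the actin-membrane linker moesin (1.61, from -1.01 to 0.60, adjusted p = 2.44e-49), *Tnfaip2* (1.55, from -0.75 to 0.80, adjusted p = 3.29e-49) and the RNA helicase gene *Ddx5* (1.35, from -0.60 to 0.75, adjusted p = 1.81e-23) followed. *Plec* and *Msn* were close to the fold threshold at 168h, and the call at 168h was lost without GCSF-OHT replicate 1 or 3 or IL3-OHT replicate 2 or 3 for *Plec* (0.56 to 0.57) and without GCSF-OHT replicate 3 or IL3-OHT replicate 1 for *Msn* (0.57 and 0.58). The opposite signs also need the call before OHT, where *Emilin1* (0.58), *Pck2* (0.59), *Ddx5* (-0.60), *Adcy6* (0.61), *Klhl5* (0.63) and *Lrp5* (0.66) were close to the fold threshold, and the calls before OHT were not recomputed under the alternatives.

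Higher in GCSF before OHT and higher in IL3-OHT at 168h were *Adcy6*, an adenylate cyclase (difference -2.22, from 0.61 to -1.61, adjusted p = 2.07e-42), *Zfp395* (-1.75, from 0.93 to -0.82, adjusted p = 3.06e-20) and *Klhl5* (-1.38, from 0.63 to -0.76, adjusted p = 1.91e-31). *Pck2*, the mitochondrial phosphoenolpyruvate carboxykinase (-1.36, from 0.59 to -0.77, adjusted p = 2.32e-20), *Lrp5*, a WNT coreceptor (-1.32, from 0.66 to -0.66, adjusted p = 1.14e-16), and *Emilin1*, a matrix protein (-1.26, from 0.58 to -0.68, adjusted p = 7.76e-18), had smaller differences. The 12 genes were picked by the call of this difference, so the call itself is no further result. It was kept under each alternative that was run for the difference, all of them limma fits.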

How the results depend on the processing

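The counts of genes called at 168h stayed within 1.5 times of 2096 and 2790 under each alternative, from 1871 to 2131 higher in GCSF-OHT and from 2229 to 2874 higher in IL3-OHT. With a library left out they ran from 2011 to 2108 and from 2582 to 2751, at 160h from 2078 to 2157 and from 2553 to 2636, and for the difference between the contrasts from 2368 to 2509 and from 1870 to 2011. No effect shared by same-numbered libraries was seen. Their deviations correlated with -0.0045, -0.0886 and -0.121, and those of libraries with different numbers with -0.0498 to 0.137. With 3 libraries per group this cannot show that the libraries are unpaired. The replicate block gave 2099 and 2797 genes, or 2012 and 2547 in the 6 libraries alone. DESeq2 called 1871 and 2309 genes. Of 4641 values of single genes under alternatives, 4595 kept their side of the threshold, 45 lost it and 1 (*Adgre1*) gained it, over 277 results of which 17 lost their call at least once, and 0 called values changed sign. The 17 included the low genes *Tlr9*, *Cd74*, *Cxcl16*, *Itgae*, *Ciita*, *Fcgr1* and *Pla2g7*. The others were *B2m*, *Cebpa*, *Gusb*, *Msn*, *Mylip*, *Plec*, *Psph*, *Traf6* and the predicted gene *Gm10222*, and, for the difference between the contrasts, *Egr1*. Of 1292 list counts, 21 moved by over 1.5 times, mostly counts of 1 to 3. With a mean of at least 10 required, MHC class II had 2 members higher in IL3-OHT instead of 4, chemokines 2 in GCSF-OHT instead of 4, cytokine receptors 1 in IL3-OHT and eosinophil markers 0. With members at 0 reads in a group set to their bound, the median of the monocyte and macrophage markers was -0.43.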

Other observations

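Casein genes, known from the lactating mammary gland where STAT5 induces them, were among the genes with the largest differences, and were chosen here after their values had been seen. *Csn2*, the beta-casein gene, had 3508, 3444 and 3039 normalized counts in GCSF-OHT and 114152, 122788 and 121538 in IL3-OHT (-5.17 at 168h, -5.50 at 160h, -2.06 before OHT), and *Csn1s1*, an alpha-casein gene, had 0, 0 and 0.856 and 51.1, 41.2 and 52.8 (-5.32, -5.20 and -2.61). With *Csn3*, the genes that lie together on chromosome 5 had the same direction in the libraries of 168h. *Ccn3*, a matricellular protein gene, had 2354, 2296 and 1989 in GCSF-OHT and 66141, 71059.9 and 70165 in IL3-OHT (-4.97 at 168h, -5.44 at 160h), and *Crip2*, a LIM protein gene, had 8.85, 10.4 and 13.7 and 392, 314 and 376 (-4.93 and -4.68).

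The largest fold change on the GCSF side belonged to the predicted gene *Gm10222*, which the rule for named genes left out. It had 1406, 962 and 1097 normalized counts in GCSF-OHT and 0, 365 and 0 in IL3-OHT, so that the IL3-OHT libraries were not alike, and replicate 2 held reads while the others were at 0. Its log2 fold change was 7.32 (SE 2.44, adjusted p = 0.0076) at 168h and 0.38 at 160h, and the call was lost without IL3-OHT replicate 1 or 3, both with 5.90, and with DESeq2.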
